A study of Homo sapiens with 12 samples.

Results

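The STAT transcription factors and the JAK kinases that phosphorylate them were followed in the cytoplasmic RNA of U2OS cells, a human osteosarcoma cell line. The members were STAT2, STAT3, STAT4, STAT5A, STAT5B, STAT6, JAK1, JAK2 and TYK2, and every array probe whose accession mapped to one of these 9 genes in RefSeq was taken. This gave 11 probes of 34127 on the array, for 9 of 27522 gene names. Of the 11 probes, 10 passed the filter on dim probes, as did 25875 of all probes. To pass, a probe needed the scanner software's mark for a signal well above background on each of the 3 arrays of some siRNA, so a probe bright in 1 group only could pass too.

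Cells were transfected with 20 nM of a control siRNA or of siRNA against DBP5, GLE1 or IPPK and cultured for 48 h, and their cytoplasmic RNA was measured on 12 one-colour arrays, with 3 arrays per siRNA. DBP5 is an RNA helicase of mRNA export, GLE1 is its activator at the nuclear pore, and IPPK is the kinase that makes the inositol phosphate IP6, a cofactor of GLE1. All 4 groups carried a transfected siRNA, all came from 1 cell line, and each slide held 1 array of each siRNA. The methods describe the replicates as independent experiments, while the labels do not state separate cultures, so the p-values measure the spread between these arrays, whose number limits the precision.

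Cytokines and interferons bind receptors at the cell surface that have no kinase activity of their own and carry JAK kinases on their cytoplasmic side. The kinases phosphorylate the receptor and the STAT proteins that dock on it, and paired STAT proteins enter the nucleus and bind DNA. SOCS proteins, which STATs induce, act back on the receptors and kinases, and in bone cells the receptors of the IL6 family signal mainly through STAT3.

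The study lists 5 siRNAs against the 3 factors, and the sample labels do not say which of those against GLE1 and IPPK were used on the arrays. Their antisense strands are shown because they define the groups compared. Bases 2 to 8 are in capitals, which is the seed of a strand that is loaded at its full length. The 27-base strands may be shortened by Dicer first, so in these the capitals need not mark the seed.
DBP5 #1: aGCCUCAUccagaacaaacaccuugau
GLE1 #1: uUCUCUUGgugucccaaggcuucuc
GLE1 #2: gUUGAGAAucuuugcucugugacggug
IPPK #1: uUGCUGAUcugcuuccacuucccaguu
IPPK #2: aAUAAACCcacauuuuggcuu

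The targeted transcripts were low on the arrays labelled with their siRNA. DDX19B, which encodes DBP5, had a normalized intensity of 1207, 1121 and 1130 on the control arrays and of 76.4, 73.1 and 72.9 after DBP5 siRNA. GLE1 had 316, 319.5 and 307.5 on the control arrays and 43.1, 29.0 and 26.6 after GLE1 siRNA. IPPK had 642, 685 and 705 on the control arrays and 123, 123 and 132 after IPPK siRNA. In each case all 3 arrays of the siRNA lay below all 3 control arrays, with ratios of 0.0643 ± 0.00169, 0.102 ± 0.0283 and 0.186 ± 0.00761 (SD, n = 3). DDX19A, the close paralog of DDX19B, had a ratio of 0.0543 after DBP5 siRNA, 0.555 after GLE1 siRNA and 0.302 after IPPK siRNA. DDX19B itself had 0.498 after GLE1 siRNA, and IPPK had 0.419 after DBP5 siRNA, so transcripts of the other targets were also below control. The size of 2 of these values depended on how the spot signal was processed: the log2 fold change of GLE1 after GLE1 siRNA was -3.29, but -1.89 with normexp and -1.85 with the authors' processed values, and that of DDX19B after DBP5 siRNA was -3.96, -3.24 and -3.26.

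A ratio is the mean of 3 arrays on the log2 scale against the control mean, given with the SD of the 3 arrays. The adjusted p-values are those of limma over all 25875 probes, with 0.05 as the threshold. The 3 comparisons with control share the same 3 control arrays. After DBP5 siRNA, 2 of the 10 member probes were called lower and 6 higher, where 27% and 27.6% of all probes were called. After GLE1 siRNA, 1 was called lower and 7 higher, with 30.1% and 32.5% of all probes. After IPPK siRNA, 3 were called lower and 4 higher, with 27.9% and 27.4% of all probes. Most probes were thus called in each comparison, and nothing particular to these genes is read from the counts. The median log2 fold change of the member probes was 0.27, 0.31 and -0.04 in the same order, and that of all probes was -0.01, 0.03 and -0.02. The direction and size differed from gene to gene, as the following paragraphs describe.

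**Figure D1:**
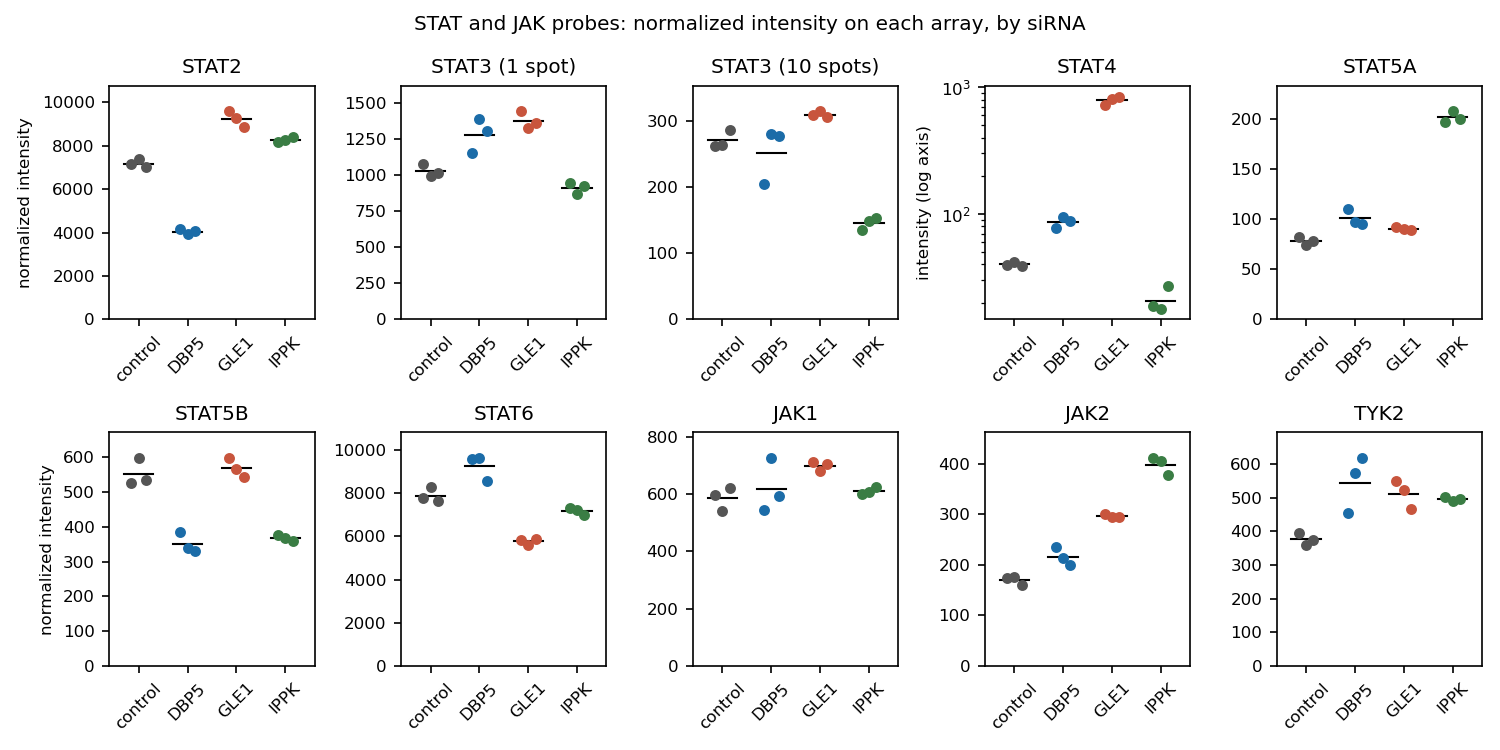
Normalized intensity (linear axis from 0, log axis for STAT4) of the 10 member probes on each array, with 1 point per array and a line at the mean of the 3 arrays taken on the log2 scale. STAT4 after GLE1 siRNA lies between 724 and 843, and the control arrays lie between 38.6 and 41.8.

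STAT4 (NM_003151), which transmits IL12 signals in lymphocytes, had the largest change among the member probes. Its bright probe had a normalized intensity of 39.8, 41.8 and 38.6 on the control arrays. It had 77.0, 93.9 and 87.9 after DBP5 siRNA and 724, 809.5 and 843 after GLE1 siRNA. After IPPK siRNA it had 18.6, 17.9 and 26.8. The 4 groups did not overlap, and the order from low to high was IPPK, control, DBP5 and GLE1, with each neighbour past the threshold of limma. By the methods' t-test after Benjamini-Hochberg, IPPK against control siRNA was not called.

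The ratio of STAT4 to control was 19.7 ± 1.54 after GLE1 siRNA (log2 fold change 4.30, 95% confidence interval 3.99 to 4.62, adjusted p = 2.3e-09 by limma). It was 2.15 ± 0.214 after DBP5 siRNA (adjusted p = 7e-05) and 0.518 ± 0.123 after IPPK siRNA (adjusted p = 0.000203). GLE1 siRNA was 9.19 times DBP5 siRNA (log2 fold change 3.20, adjusted p = 3.34e-08, or 2.43 with normexp and 2.37 with the authors' processed values). The probe was well above background on 2 of the 3 IPPK arrays, so the lowest of these levels lies near the limit of measurement. The second STAT4 probe was well above background on 1 of 12 arrays, at 2.79 to 20.5 on the control arrays and 3.13 to 11.1 after GLE1 siRNA, and was not tested. The rise was therefore measured by 1 of the 2 STAT4 probes. The other was well above background on 1 control array only and gave no level after GLE1 siRNA. The size depended on how the spot signal was processed: the log2 fold change after GLE1 siRNA was 2.94 with normexp and 2.89 with the authors' processed values, after DBP5 siRNA 0.51 and 0.52 in place of 1.10, and after IPPK siRNA -0.32 and -0.23 in place of -0.95. All of these passed the threshold. In these bulk extracts, more cells with the transcript and more of it per cell cannot be told apart.

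STAT2 (NM_005419), the partner of IRF9 in the type I interferon response, fell after DBP5 siRNA and rose after GLE1 and IPPK siRNA. Its normalized intensity was 7140, 7374 and 7029 on the control arrays and 4142, 3924 and 4063 after DBP5 siRNA. It was 9605, 9262 and 8872 after GLE1 siRNA and 8161, 8256 and 8397 after IPPK siRNA. No 2 groups overlapped. The ratio was 0.563 ± 0.0154 after DBP5 siRNA (adjusted p = 1.99e-07 by limma), 1.29 ± 0.0511 after GLE1 siRNA (adjusted p = 5.54e-05) and 1.15 ± 0.0165 after IPPK siRNA (adjusted p = 0.00379). GLE1 siRNA was 2.29 times and IPPK siRNA 2.05 times DBP5 siRNA (adjusted p = 1.74e-08 and 7.6e-08). The order was DBP5, control, IPPK and GLE1, and the closest neighbours, IPPK and GLE1, differed by a ratio of 0.895 (adjusted p = 0.0132).

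STAT3 (NM_213662), the main effector of the IL6 family, was measured by 2 probes that did not give the same picture. The probe with 1 spot had 1076, 991 and 1017 on the control arrays, 1155, 1392 and 1302 after DBP5 siRNA, 1444, 1327 and 1362 after GLE1 siRNA and 943, 870.3 and 922 after IPPK siRNA. The probe with 10 spots had 263, 265 and 287 on the control arrays, 205, 280 and 278 after DBP5 siRNA, 309, 315 and 306 after GLE1 siRNA and 135, 149 and 153 after IPPK siRNA. On both probes the IPPK arrays were the lowest and the GLE1 arrays lay above all control arrays. The 10 spots of the second probe differed little within an array, with an SD of 0.0359 to 0.0934 on the log2 scale.

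The 1-spot STAT3 probe rose after DBP5 siRNA (ratio 1.25 ± 0.116, adjusted p = 0.00371 by limma) and after GLE1 siRNA (1.34 ± 0.0584, adjusted p = 0.000449). After IPPK siRNA its ratio was 0.887 ± 0.0363 (adjusted p = 0.0677), below the control arrays on 3 of 3 arrays but short of the threshold in the fit of all 12 arrays. The call of that value depended on the test: it passed in the fit of the 6 arrays compared (adjusted p = 0.0449) and by the methods' t-test, before and after Benjamini-Hochberg. Without DBP5 replicate 1 its adjusted p was 0.0266, and without DBP5 replicate 2 it was 0.0464, since all groups share 1 estimate of the spread. The 10-spot probe fell after IPPK siRNA (0.536 ± 0.0349, adjusted p = 4.73e-05), and its ratio was 0.928 ± 0.158 after DBP5 siRNA (adjusted p = 0.453) and 1.14 ± 0.0178 after GLE1 siRNA (adjusted p = 0.156). Without DBP5 replicate 1, which stood at 205 against 280 and 278, the log2 fold change after DBP5 siRNA turned from -0.11 to 0.04 (adjusted p = 0.642), the adjusted p of the GLE1 value was 0.0162, and in the fit of the 6 arrays compared it was 0.0226. IPPK and GLE1 siRNA differed on both probes, with ratios of 0.662 and 0.469 (adjusted p = 4.07e-05 and 9.15e-06). GLE1 and DBP5 siRNA did not pass the threshold against each other on the 1-spot probe (adjusted p = 0.251). On the 10-spot probe they did (adjusted p = 0.0393), but not without control replicate 1 (0.0519), control replicate 2 (0.0517), DBP5 replicate 1 (0.0773), GLE1 replicate 1 (0.0782), GLE1 replicate 2 (0.0951), GLE1 replicate 3 (0.0745) or IPPK replicate 2 (0.0521), nor with quantile normalization (0.0529), no filter (0.0597) or the 6 arrays compared (0.099). The order was thus IPPK, control, DBP5 and GLE1 on the 1-spot probe and IPPK, DBP5, control and GLE1 on the other. The neighbours that did not pass the threshold in the fit of all 12 arrays were IPPK with control and DBP5 with GLE1 on the 1-spot probe, and DBP5 with control and control with GLE1 on the 10-spot probe.

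**Figure D2:**
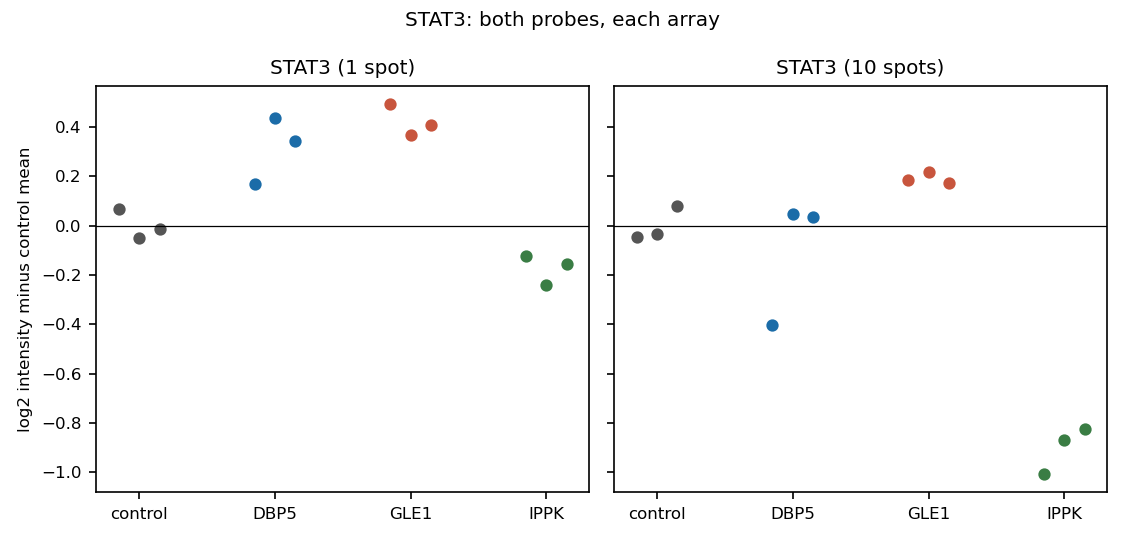
STAT3 on each array as log2 intensity minus the mean of the 3 control arrays, for the probe with 1 spot and the probe with 10 spots (1 point per array). The IPPK arrays are lowest on both probes, with ratios of 0.887 and 0.536, and DBP5 replicate 1 lies below the other DBP5 arrays.

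STAT5A (NM_003152) and STAT5B (NM_012448), the paralogs that act downstream of growth hormone and prolactin, are neighbouring coding genes on chromosome 17, with STAT3 next to STAT5A. STAT5A had 82.3, 74.0 and 78.3 on the control arrays, 110.3, 96.8 and 95.4 after DBP5 siRNA, 92.2, 90.2 and 88.7 after GLE1 siRNA and 197, 208 and 200.3 after IPPK siRNA. STAT5B had 525.5, 600 and 535 on the control arrays, 385, 338 and 331 after DBP5 siRNA, 598, 565 and 544 after GLE1 siRNA and 377, 368 and 360.3 after IPPK siRNA. The IPPK arrays were thus the highest for STAT5A and below all control arrays for STAT5B.

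The ratio of STAT5A to control was 2.58 ± 0.0717 after IPPK siRNA (adjusted p = 4.54e-08 by limma), 1.29 ± 0.105 after DBP5 siRNA (adjusted p = 0.000706) and 1.16 ± 0.0224 after GLE1 siRNA (adjusted p = 0.016). Without control replicate 2, the adjusted p of the GLE1 value was 0.0629, and with 75th percentile scaling it was 0.0845. With normexp, the log2 fold change of STAT5A was 0.87 after IPPK siRNA and 0.22 after DBP5 siRNA, in place of 1.37 and 0.36. The order of STAT5A was control, GLE1, DBP5 and IPPK, and GLE1 and DBP5 did not pass the threshold against each other (adjusted p = 0.066, or 0.0429 without DBP5 replicate 3 and 0.021 with quantile normalization). STAT5B fell after DBP5 siRNA (0.635 ± 0.0533, adjusted p = 2.61e-05) and after IPPK siRNA (0.667 ± 0.0154, adjusted p = 6.08e-05), and its ratio after GLE1 siRNA was 1.03 ± 0.0493 (adjusted p = 0.654, 95% confidence interval of the log2 fold change -0.12 to 0.21), with the log2 fold change at -0.02 with the authors' processed values. For STAT5B the groups formed 2 levels, DBP5 with IPPK (adjusted p = 0.46 between them by limma) and control with GLE1. After Benjamini-Hochberg, the methods' t-test did not call STAT5A or STAT5B after DBP5 siRNA (adjusted p = 0.0508 and 0.0752). Nor did it call STAT5A after GLE1 siRNA (0.0603).

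STAT6 (NM_003153), the effector of IL4 and IL13, had 7762, 8265 and 7637 on the control arrays and 9561, 9653 and 8587 after DBP5 siRNA. It had 5851, 5601 and 5893 after GLE1 siRNA and 7333, 7242 and 6992 after IPPK siRNA. The order was GLE1, IPPK, control and DBP5, with no overlap between neighbours. The ratio was 0.733 ± 0.0200 after GLE1 siRNA (adjusted p = 5.62e-05 by limma), 1.17 ± 0.0749 after DBP5 siRNA (adjusted p = 0.00623) and 0.912 ± 0.0224 after IPPK siRNA (adjusted p = 0.0765, or 0.0409 without DBP5 replicate 3 and 0.0341 with 75th percentile scaling). IPPK and control siRNA were thus the neighbours that did not pass the threshold of limma. The DBP5 value of STAT6 was not called by the methods' t-test after Benjamini-Hochberg (adjusted p = 0.0735). STAT6 was the 1 member probe called lower after GLE1 siRNA.

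Of the kinases, JAK2 (NM_004972), which serves receptors of growth hormone, erythropoietin and leptin, rose in all 3 knock-downs. Its normalized intensity was 173, 176 and 159 on the control arrays, 235.5, 213 and 200.1 after DBP5 siRNA, 300.3, 295 and 295 after GLE1 siRNA and 412, 406 and 377 after IPPK siRNA. No 2 groups overlapped. The ratio was 1.28 ± 0.106 after DBP5 siRNA (adjusted p = 0.00125 by limma), 1.76 ± 0.0185 after GLE1 siRNA (adjusted p = 1.87e-06) and 2.36 ± 0.110 after IPPK siRNA (adjusted p = 1.28e-07). Each step in the order control, DBP5, GLE1 and IPPK passed the threshold of limma (adjusted p = 0.000194 for GLE1 against DBP5 and 0.000304 for IPPK against GLE1). By the methods' t-test after Benjamini-Hochberg, the steps from control to DBP5 and from DBP5 to GLE1 were not called.

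TYK2 (NM_003331), a kinase of the type I interferon and IL12 receptors, had 395, 360.4 and 373 on the control arrays, 453, 573 and 619 after DBP5 siRNA, 549.5, 524 and 466 after GLE1 siRNA and 501, 490.4 and 495 after IPPK siRNA. All knock-down arrays lay above all control arrays, and the 3 knock-downs overlapped. The ratio was 1.45 ± 0.228, 1.36 ± 0.114 and 1.32 ± 0.0142 after DBP5, GLE1 and IPPK siRNA (adjusted p = 0.00149, 0.00373 and 0.00837 by limma). The knock-downs did not pass the threshold against each other (adjusted p = 0.531, 0.336 and 0.734). Without DBP5 replicate 1, the lowest of its group, GLE1 and IPPK differed from DBP5 siRNA with adjusted p = 0.0356 and 0.0169.

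JAK1 (NM_002227), a kinase of many cytokine receptors, had the smallest changes among the kinases. It had 595, 541 and 621 on the control arrays, 543, 727 and 593 after DBP5 siRNA, 711, 681 and 705 after GLE1 siRNA and 601, 606 and 625 after IPPK siRNA. The GLE1 arrays lay above the control arrays, while the DBP5 and IPPK arrays overlapped them. The ratio after GLE1 siRNA was 1.20 ± 0.0269 (adjusted p = 0.0375 by limma), and this call was lost without control replicate 1 (0.0653), control replicate 2 (0.132), GLE1 replicate 1 (0.0891), GLE1 replicate 2 (0.0607), GLE1 replicate 3 (0.0852) or IPPK replicate 2 (0.0506), with no filter (0.0563) and with the authors' processed values (0.148). The ratios after DBP5 and IPPK siRNA were 1.05 ± 0.163 and 1.04 ± 0.0218 (adjusted p = 0.549 and 0.625). The order was control, IPPK, DBP5 and GLE1, and in the fit of all 12 arrays no knock-down passed the threshold against another (adjusted p = 0.14, 0.919 and 0.103). IPPK against GLE1 siRNA, the last of these, was called in the fit of the 6 arrays compared (adjusted p = 0.0083) and by the methods' t-test, before and after Benjamini-Hochberg. DBP5 replicate 2 was the highest of its group, and without it the log2 fold change after DBP5 siRNA turned from 0.08 to -0.04 and that of IPPK against DBP5 siRNA from -0.01 to 0.10, so the order of these groups rested on it. The latter was also above 0 with normexp (0.03) and with the processed values (0.05). Without the same array the adjusted p was 0.0053 for GLE1 against DBP5 siRNA and 0.0213 for IPPK against GLE1 siRNA.

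**Figure D3:**
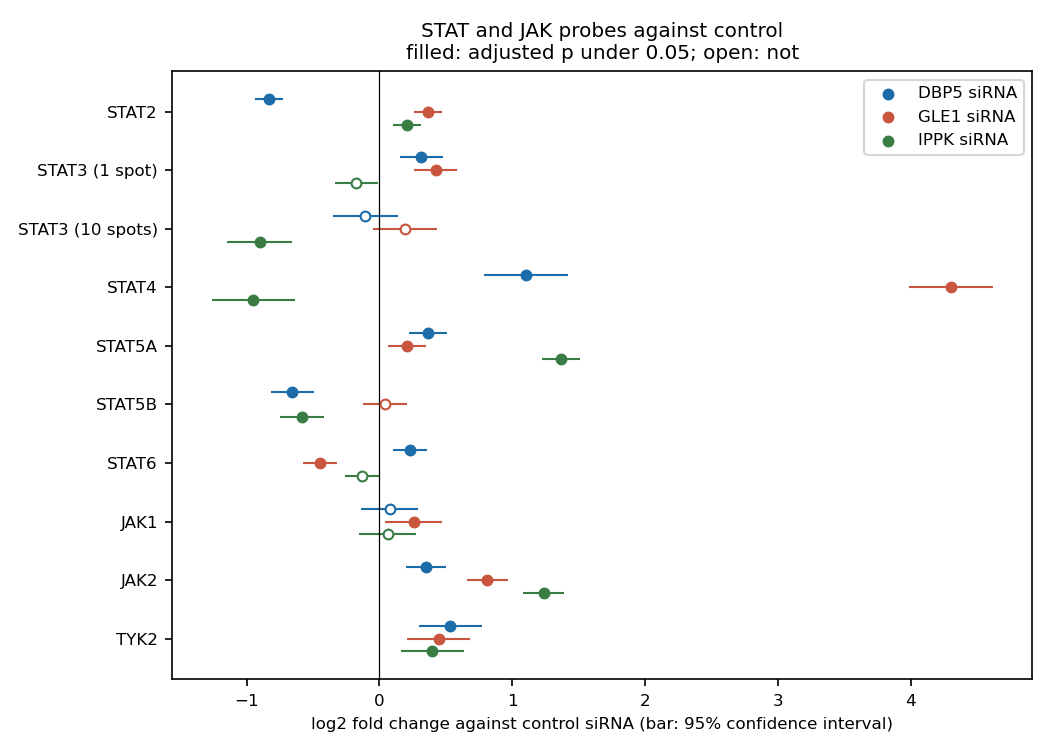
Log2 fold change of each member probe against control after DBP5, GLE1 and IPPK siRNA (points, filled where the adjusted p is under 0.05) with 95% confidence intervals from limma (bars). STAT4 after GLE1 siRNA stands at 4.30, and STAT2 after DBP5 siRNA at -0.83.

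The knock-downs were also set against each other in the same fit. Between GLE1 and DBP5 siRNA, 1 member probe was lower and 5 were higher, with 27% and 27.8% of all probes called. Between IPPK and DBP5 siRNA, 4 were lower and 3 higher, with 24.6% and 24.4% of all probes. Between IPPK and GLE1 siRNA, 5 were lower and 3 higher, with 31.5% and 29.3% of all probes. STAT4 had a ratio of 0.0262 between IPPK and GLE1 siRNA, with 2 of the 3 IPPK arrays well above background. Its size depended on how the spot signal was processed, with a log2 fold change of -5.25, but -3.26 with normexp and -3.11 with the authors' processed values. JAK2, STAT5A and STAT6 were the probes called higher in IPPK against GLE1 siRNA, with ratios of 1.34, 2.23 and 1.24.

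The other genes of the pathway were taken from a list of 61 ligands, receptors, inhibitors, cofactors and targets, each by its brightest probe. All 61 had a probe and 60 were tested. IFNB1, an interferon that signals through STAT2, was not well above background on any array. After DBP5 siRNA 23 were called lower and 18 higher, where 27.1% and 27.3% of the tested gene names were called. These were the 20818 gene names whose brightest probe passed the filter. After GLE1 siRNA 16 pathway genes were lower and 26 higher, with 30.4% and 32% of the tested gene names. After IPPK siRNA 20 were lower and 14 higher, with 28.2% and 27.3%. Ratios of these genes given without a p passed the threshold, unless the text says otherwise. The median log2 fold change of the 60 genes was -0.07, 0.22 and -0.03, and that of all tested gene names was -0.02, 0.03 and -0.03.

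Of the 7 ligands tested, 5 fell and 0 rose after DBP5 siRNA, 5 fell and 0 rose after IPPK siRNA, and 1 fell and 4 rose after GLE1 siRNA. The shares of all tested gene names called lower and higher were 27.1% and 27.3%, 28.2% and 27.3%, and 30.4% and 32% in this order. The same shares stand beside the counts of the other roles below, and nothing particular to a role is read from these small counts. IL11, an IL6 family cytokine of bone, had 4278, 4559 and 3726 on the control arrays and ratios of 0.396, 1.84 and 0.135 after DBP5, GLE1 and IPPK siRNA. IL6 had 396.4, 457 and 408 on the control arrays, 110.2, 104 and 91.8 after DBP5 siRNA, 543, 647 and 633 after GLE1 siRNA and 131, 134 and 130.3 after IPPK siRNA, with ratios of 0.242, 1.44 and 0.314. Both cytokines were thus above control after GLE1 siRNA and below it in the other 2 knock-downs, on 3 of 3 arrays each time. CNTF had ratios of 0.712, 1.08 and 0.754, of which the second did not pass the threshold (adjusted p = 0.382 by limma). LIF, a ligand of LIFR, had 0.833, 1.30 and 0.925 (adjusted p = 0.217 for the last). Its second probe had 1.02, 1.21 and 1.04 (adjusted p = 0.892, 0.201 and 0.819), and the second of these passed with 75th percentile scaling (0.0371), without control replicate 3 (0.0334) and without GLE1 replicate 1 (0.0403). OSM, the ligand of OSMR, differed by slide, with 39.3, 36.6 and 22.6 on the control arrays and 52.6, 44.5 and 25.6 after GLE1 siRNA. Its ratios were 0.967 ± 0.319, 1.23 ± 0.434 and 1.13 ± 0.350, none past the threshold without the slide in the fit (adjusted p = 0.93, 0.522 and 0.728). With the replicate number as a block, the GLE1 value passed (adjusted p = 0.587, 0.00473 and 0.0596), and within slides it was 0.42, 0.28 and 0.18 on the log2 scale. The second OSM probe had ratios of 1.09, 1.21 and 0.882 (adjusted p = 0.337, 0.0438 and 0.17, or 0.134, 0.00655 and 0.0442 with the block). Its GLE1 call without the block was lost without control replicate 1 (0.077), control replicate 2 (0.151), DBP5 replicate 1 (0.0505), GLE1 replicate 1 (0.061), GLE1 replicate 2 (0.0837), GLE1 replicate 3 (0.122) or IPPK replicate 1 (0.0554), with no filter (0.0651), with normexp (0.106) and with the authors' processed values (0.0995). Without DBP5 replicate 2 its DBP5 value had an adjusted p of 0.0423. Both OSM probes were thus above control after GLE1 siRNA on each slide. CTF1 was lower in all 3, with ratios of 0.414, 0.688 and 0.843, the last of which had an adjusted p of 0.0136 by limma, or 0.0523 without IPPK replicate 2.

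Of the 19 receptors, 6 fell and 8 rose after DBP5 siRNA, 6 and 7 after GLE1 siRNA, and 7 and 6 after IPPK siRNA. IL13RA1, a receptor chain upstream of STAT6, had 773, 875 and 815 on the control arrays, 5493, 4899 and 4957 after DBP5 siRNA, 8091, 8512 and 8107 after GLE1 siRNA and 4180, 4519 and 4533 after IPPK siRNA. Its ratios were 6.23, 10.0 and 5.38, and those of its second probe were 2.22, 2.89 and 1.88, so the probes gave 1 direction and different sizes. IL6ST, the shared signal chain of the IL6 family, rose in all 3, with log2 fold changes of 0.31, 0.59 and 0.52 on its brightest probe, and its other 6 probes gave ratios from 2.30 to 8.74. On 2 of these 6, normexp moved the IL6ST log2 fold change after GLE1 siRNA from 3.13 to 1.60 and from 2.17 to 1.37. Of the specific receptor chains of IL6 and IL11, IL6R had ratios of 0.496, 1.33 and 0.761 (adjusted p = 0.0278 and 0.0393 for the last 2). The second was lost without control replicate 1 (0.055), control replicate 3 (0.0828), GLE1 replicate 2 (0.0511) or GLE1 replicate 3 (0.11). The last was lost without control replicate 1 (0.0905), control replicate 2 (0.101), control replicate 3 (0.0552), GLE1 replicate 2 (0.0523), IPPK replicate 2 (0.0794) or IPPK replicate 3 (0.115), with no filter (0.0568), with normexp (0.0955) and with the authors' processed values (0.128). IL11RA had 0.844, 0.564 and 0.779 (adjusted p = 0.0976 for the first and 0.0204 for the last). The first passed with normexp (0.034), the processed values (0.0124), the 6 arrays compared (0.0371) and without GLE1 replicate 2 (0.0125), and the last was lost without control replicate 2 (0.0721) or IPPK replicate 2 (0.0575). LIFR had 1.45, 3.20 and 1.08 (adjusted p = 0.202 for the last by limma), and OSMR had 2.31, 2.44 and 2.95. CNTFR had 2.61, 1.21 and 2.47, of which the second did not pass the threshold (adjusted p = 0.139, or 0.0323 with the replicate number as a block and 0.0351 with 75th percentile scaling). With normexp, the log2 fold change of CNTFR was 0.79 after DBP5 siRNA and 0.66 after IPPK siRNA, in place of 1.38 and 1.30.

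Of the 16 inhibitors, 6 fell and 6 rose after DBP5 siRNA, 4 and 6 after GLE1 siRNA, and 3 and 5 after IPPK siRNA. SOCS3, a feedback inhibitor of IL6 signals, had 364.5, 369 and 418 on the control arrays and 1322, 1158 and 1065 after GLE1 siRNA, a ratio of 3.07, and its ratios after DBP5 and IPPK siRNA were 1.18 and 0.898 (adjusted p = 0.0582 and 0.199 by limma). Without control replicate 3, DBP5 replicate 1, GLE1 replicate 1 or GLE1 replicate 3, the adjusted p of SOCS3 after DBP5 siRNA was 0.0348, 0.0189, 0.0372 and 0.0482, and it was 0.0304 with normexp and 0.0497 with the filter on all 12 arrays. SOCS2 had its highest level after IPPK siRNA, at 391, 394 and 390.3 against 143, 154 and 132 on the control arrays, a ratio of 2.74. Its ratios of 0.823 after DBP5 siRNA (adjusted p = 0.032) and 1.20 after GLE1 siRNA (adjusted p = 0.0389) depended on single arrays and on the processing. The first was lost without control replicate 1 (0.071), control replicate 2 (0.113), DBP5 replicate 2 (0.0763) or DBP5 replicate 3 (0.116), with quantile normalization (0.0687), with the authors' processed values (0.0753) and with the 6 arrays compared (0.0998). The second was lost without control replicate 1 (0.0802), control replicate 3 (0.134), DBP5 replicate 2 (0.0509), GLE1 replicate 1 (0.113), GLE1 replicate 3 (0.0824), IPPK replicate 2 (0.0523) or IPPK replicate 3 (0.0523), with 75th percentile scaling (0.0746), normexp (0.0951), the processed values (0.0909) and no filter (0.0583). SOCS5 had ratios of 1.31, 2.78 and 1.65. SOCS1 fell after DBP5 and IPPK siRNA, with ratios of 0.499 and 0.622, and had 0.996 after GLE1 siRNA (adjusted p = 0.94), which lay above 1 without GLE1 replicate 3 and with normexp, at log2 fold changes of 0.02 and 0.01.

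Of the 8 cofactors, 1 fell and 2 rose after DBP5 siRNA, 1 and 4 after GLE1 siRNA, and 0 and 2 after IPPK siRNA. NMI, a protein that binds STATs, had ratios of 2.52, 3.02 and 3.92, and STAM, an adaptor bound by JAKs, had 2.49, 2.14 and 2.10, and 1.90, 2.03 and 1.80 on its second probe. STAM2 rose after GLE1 siRNA with a ratio of 1.71, and had 0.916 and 1.05 after DBP5 and IPPK siRNA (adjusted p = 0.16 and 0.439 by limma). NCOA1 had ratios of 0.886, 0.652 and 0.878, of which only the second passed the threshold, while with the replicate number as a block the first and the last had adjusted p = 0.033 and 0.0241 by limma. Without DBP5 replicate 2 the adjusted p of the first was 0.032. Its second probe had 1.10, 0.996 and 1.62 ± 0.667, and the arrays of each knock-down overlapped the control arrays. Only the last of these ratios was called, as higher (adjusted p = 0.0242), though within slides it was 1.47, -0.08 and 0.71 on the log2 scale. That call was lost without control replicate 1 (0.0817), control replicate 3 (0.0631) or IPPK replicate 1 (0.0599), with 75th percentile scaling (0.0981) and in the fit of the 6 arrays compared (0.0909), and normexp moved the log2 fold change from 0.70 to 0.31.

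Of the 10 targets, 5 fell and 2 rose after DBP5 siRNA, 4 and 5 after GLE1 siRNA, and 5 and 1 after IPPK siRNA. PIM1, a kinase gene induced by STAT3 and STAT5, had 2618, 2617 and 2772 on the control arrays and 339, 322 and 288 after GLE1 siRNA. Its ratios were 0.281, 0.118 and 0.287. VEGFA fell in all 3, with ratios of 0.396, 0.738 and 0.715, and its second probe had 0.335, 0.475 and 0.982, of which the last did not pass the threshold (adjusted p = 0.807 by limma). BCL3 had 0.752, 1.96 and 0.868, and the last (adjusted p = 0.03) was lost without control replicate 1 (0.102), control replicate 3 (0.0755), IPPK replicate 1 (0.054), IPPK replicate 2 (0.0793) or IPPK replicate 3 (0.0687). PIM2 had a ratio of 1.37 after DBP5 siRNA (adjusted p = 0.0206 by limma), which lost its call without control replicate 1 (0.0557), control replicate 3 (0.0694) or DBP5 replicate 3 (0.0819), with 75th percentile scaling (0.0551), with normexp (0.235) and with the authors' processed values (0.0546). It was not well above background after GLE1 or IPPK siRNA and was at least 1.55-fold and 1.31-fold lower than control there, taking the lowest signal well above background on each array as the bound (adjusted p = 0.000272 and 0.00353). The PIM2 value after IPPK siRNA did not pass the threshold with normexp (log2 fold change -0.08, adjusted p = 0.169 by limma). Nor did it pass with the authors' processed values (log2 fold change -0.09, adjusted p = 0.114). The bound of 1.31-fold is thus one of the background-subtracted intensity only.

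**Figure D4:**
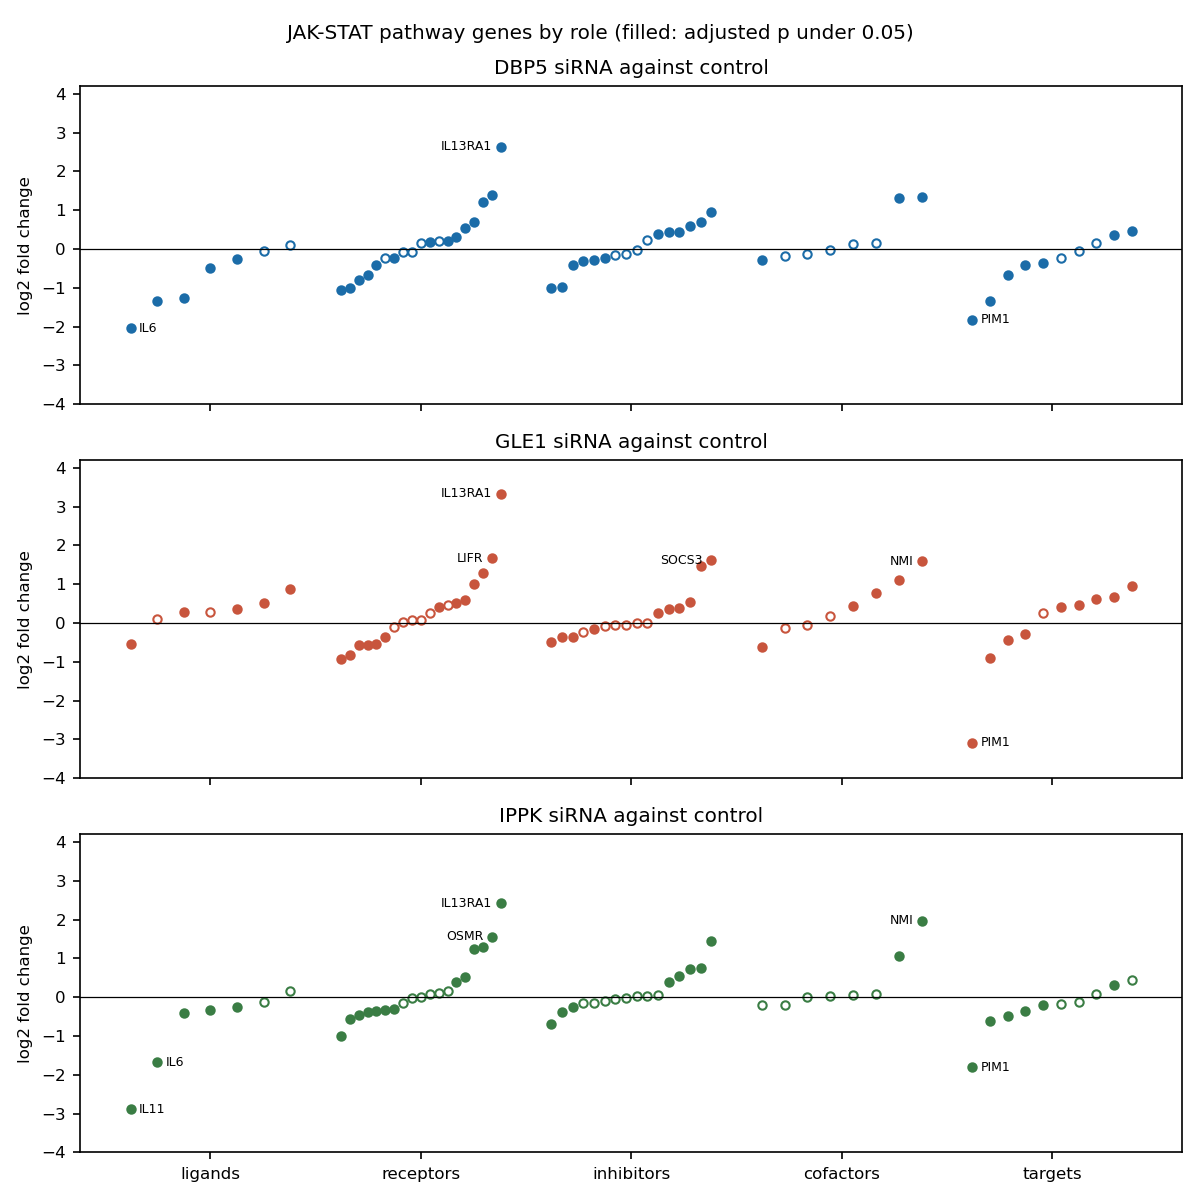
Log2 fold change against control of the 60 tested pathway genes, by role, after DBP5, GLE1 and IPPK siRNA, with 1 point per gene and filled points where the adjusted p is under 0.05. IL11 and IL6 lie below 0 after DBP5 and IPPK siRNA and above 0 after GLE1 siRNA, and PIM1 lies below 0 in all 3.

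For the 8 members with a probe measured above background on each of the 12 arrays, the 3 named genes with the highest Pearson's r across the 12 arrays were taken among 14985 candidates, as a description over arrays that come from 4 groups. For STAT2 they were GMFB (0.995), PPA1 (0.994) and PPTC7 (0.993), and for JAK2 they were BCL2A1 (0.995), ASPHD2 (0.993) and WDR7 (0.991). For STAT5A they were CRYM (0.988), NRG1 (0.988) and MMP3 (0.985), and for STAT5B they were PTAR1 (0.992), B3GNT3 (0.979) and C16orf87 (0.979). JAK1 had the lowest of these values, with 0.927 for DHX37, 0.882 for MAPK3 and 0.879 for SH3GL1. STAT3 was nearest to SLC25A23 (0.978), STAT6 to CFDP1 (0.989) and TYK2 to KAT5 (0.957).

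Promoter windows of all 9 members were found in the RefSeq table of build GRCh38.p14, 17 windows of 300 bases. The letters TTCNNNGAA, the core that STAT dimers bind, were searched on both strands and were in 0 of the 17 windows and in 7.66% of all 35116 windows. The letters GAAANNGAAA, the core bound by the complex of STAT2 and IRF9, were in 0 of the 17 and in 3.57% of all. This says only that these letters are not in these windows.

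The cell type and the fraction were checked against markers. VIM, SPARC, COL1A1, RUNX2, TWIST1, FN1 and CDH2 of 8 mesenchymal and bone markers were well above background on all 12 arrays, and COL1A2 was so on the 3 control arrays and 1 GLE1 array. After IPPK siRNA COL1A1 had a ratio of 0.253 and RUNX2 0.612 (log2 fold change -0.71, or -0.46 with the authors' processed values), and CDH2 had 1.42, 2.64 and 1.88 after DBP5, GLE1 and IPPK siRNA. COL1A1 had 0.779 after DBP5 siRNA and SPARC had 0.777 after GLE1 siRNA. SPARC after IPPK siRNA had 0.864 (adjusted p = 0.0931), which passed with normexp (0.00339), the processed values (0.00236) and without IPPK replicate 1 (0.033). COL1A2 had a mean of 17.8 on the control arrays and of 9.80 and 9.62 after DBP5 and IPPK siRNA, where it was not well above background. Both values were called lower by limma. The COL1A2 probe passed the filter through the control arrays only, where it was highest on average, so nothing is read from these calls. The IPPK call was lost with the authors' processed values (log2 fold change -0.10, adjusted p = 0.0804). VIM after DBP5 siRNA had 1.25 (adjusted p = 0.036), lost without control replicate 1 (0.0987), control replicate 2 (0.138), DBP5 replicate 1 (0.0517) or DBP5 replicate 3 (0.136), with 75th percentile scaling (0.0975), no filter (0.0548) and the 6 arrays compared (0.0968). After GLE1 siRNA VIM had 1.18 (adjusted p = 0.0969, or 0.043 with the replicate number as a block and 0.013 without control replicate 3), and FN1 had 1.53 (adjusted p = 0.0701, or 0.0267 without GLE1 replicate 1 and 0.0326 without IPPK replicate 1). The other values of these 8 markers, TWIST1 included, were not called. Of the blood markers, PTPRC, CD14 and CD79A were well above background on all 12 arrays, at 42.8 to 93.0, 108 to 165 and 2628 to 4293, and CD3E on 11. None of these 4 was called in any knock-down in the fit of all 12 arrays. CD79A after GLE1 siRNA had a ratio of 1.26 (adjusted p = 0.0607 by limma) and passed with the replicate number as a block (0.0245), with normexp (0.0384), with the 6 arrays compared (0.0272), without DBP5 replicate 1 (0.0432) and without IPPK replicate 1 (0.0281). PTPRC after IPPK siRNA had 1.17 (adjusted p = 0.609, or 0.00788 with the block). The part of the blood markers in the STAT4 values was not tested. HBA1 and NEAT1 had no named probe. Of the epithelial markers, KRT5 was not well above background on any array, EPCAM and KRT14 were so on all 12, and CDH1 was so on 0 of the 3 control arrays, at 10.04 to 13.1, and on 3 of 3 after GLE1 siRNA, at 84.8 to 130, and its part in the STAT4 values was not tested. CDH1 was also so on 3 arrays after DBP5 siRNA and 2 after IPPK siRNA, and was called higher than control in both by limma. With normexp its DBP5 call was lost, at a log2 fold change of 0.18 in place of 0.93 (adjusted p = 0.0516). These sizes are limited by the control arrays, where CDH1 was not well above background. The CDH1 probe passed the filter through the DBP5 and GLE1 arrays only, so nothing is read from its calls against control. The epithelial markers did not move 1 way: KRT14 had ratios of 1.16 (adjusted p = 0.203), 1.73 and 0.710 after DBP5, GLE1 and IPPK siRNA, and EPCAM had 0.657, 0.747 and 0.527 (adjusted p = 0.0392, 0.126 and 0.00464 by limma), below the control arrays on 3 of 3 arrays each time. The EPCAM call after DBP5 siRNA was lost without control replicate 1 (0.0817), control replicate 2 (0.113), control replicate 3 (0.0536), DBP5 replicate 1 (0.071), DBP5 replicate 2 (0.0749), DBP5 replicate 3 (0.0998) or GLE1 replicate 2 (0.0516) and with no filter (0.0591). Its value after GLE1 siRNA passed without IPPK replicate 1 (0.00864) and in the fit of the 6 arrays compared (0.0316). Of the nuclear-retained RNAs, KCNQ1OT1 had ratios of 1.59, 1.85 and 1.17 and MALAT1 0.689, 0.809 and 0.472 (adjusted p = 0.0956, 0.322 and 0.00372 by limma). The KCNQ1OT1 call after IPPK siRNA was lost without control replicate 1 (0.0643), control replicate 2 (0.0518) or IPPK replicate 2 (0.0776), and MALAT1 after DBP5 siRNA passed without GLE1 replicate 2 (0.0332), in the fit of the 6 arrays compared (0.00733) and with the authors' processed values (0.0496). The long RNA MIAT was not well above background after GLE1 or IPPK siRNA. Leakage of nuclear RNA into the fraction was not tested.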

How the data were processed

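The 12 arrays were Agilent arrays of 1 colour. For each array the authors deposited Feature Extraction 10.7.3.1 output with a linear intensity per spot after background subtraction, and a table of processed log2 values, which followed the log2 median spot intensity (r at least 0.9998 across probes, and 0.961 to 0.967 with the subtracted intensity). The medians of its columns ran from 7.75 to 7.76, and its background setting is not given in the sources used here. Saturated spots numbered 0, and 72.6% to 79.0% of spots were well above background.

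The log2 background-subtracted intensity was normalized by cyclic loess, following the LOESS of the methods. Outlier and control spots were left out, and spots of a probe were averaged. RefSeq names (GRCh38.p14) were found for 77.5% of probes. Comparisons used limma 3.58.1 in R 4.3.3 with all 12 arrays, 1 mean per siRNA and Benjamini-Hochberg adjustment over 25875 probes, and the step was tested on simulated data. Figures used matplotlib 3.10.9 in Python 3.11.15. All members were named, and of the pathway list up to 4 genes a role with the largest called change. LIF, OSM, IL6ST, IL6R and IL11RA were added as ligands or receptors of a named gene, and IFNB1 as not tested. Other ligands and receptors of the list, such as CLCF1 and IFNAR1, were not described. Members and lists were chosen with earlier results of these data known.

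The replicate number marks the slide. Deviations from group means correlated at 0.309 to 0.519 in the 18 same-numbered pairs and at -0.327 to -0.00822 in the 36 others, so the numbers pair the arrays, and a fit with the number as a block was run. Other alternatives were 75th percentile and quantile scaling, normexp (offset 50, on the median spot signal), the processed values, no filter or a filter on all 12 arrays, fits of the 2 groups alone, leaving out 1 array at a time, and the methods' t-test, two-sided, in which arrays of a number were pairs. For the study in general the methods name that paired test or an ANOVA with Dunnett's test, with the choice given in the figure legends. The legends that show array values name the ANOVA, which was not run here. For the arrays the methods name a rank product, which was not run here either.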

Additional observations from a re-analysis of the deposited data

How the results depend on the processing

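The member values against control numbered 657 over all alternatives. Of these, 627 kept their side of the threshold, 21 lost the call and 9 gained it. The sign turned in 0 values that were called and in 3 that were not (JAK1 and the 10-spot STAT3 probe after DBP5 siRNA, each without 1 array, and STAT5B after GLE1 siRNA with the processed values). Another scaling turned the sign of 0 of 120 values. With the replicate block, 0 member calls and 0 counts of member probes changed (7 called higher after GLE1 siRNA, and STAT4 at a log2 fold change of 4.30), while 8 values of the other named genes, their further probes and the markers gained a call and 0 lost it (2 of NCOA1, 2 of OSM and 1 each of CNTFR, CD79A, PTPRC and VIM). Over all alternatives, 3692 of 3879 such values kept their side, 133 lost the call and 54 gained it. The sign turned in 0 that were called and in 79 that were not.

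Counts of member probes moved in some settings, and the cause was not tested. The counts that follow are not a full list. By the methods' t-test after Benjamini-Hochberg, 1 was higher and 1 lower after DBP5 siRNA, 3 were higher in GLE1 against DBP5 siRNA and 1 was lower in IPPK against DBP5 siRNA. The shares of all probes fell too, to 12% higher and 12% lower, 12.2% and 8.92% in these comparisons, and nothing particular to the members is read from the lower counts. With quantile normalization, 2 were lower in GLE1 against DBP5 siRNA, and with single arrays left out that count ranged from 1 to 2. The calls of JAK1 after GLE1 siRNA (adjusted p = 0.148 with the processed values) and of STAT5A after GLE1 siRNA (0.0845 with 75th percentile scaling) depended on the setting. Over the 60 member values of the 6 comparisons, the methods' t-test lost 15 calls and gained 2 after Benjamini-Hochberg, and lost 4 and gained 2 before it. Lost before it were TYK2 and the 1-spot STAT3 probe after DBP5 siRNA. The others were the 10-spot STAT3 probe in GLE1 against DBP5 siRNA and STAT2 in IPPK against GLE1 siRNA. Not called after Benjamini-Hochberg were STAT5A, STAT5B, STAT6, JAK2, TYK2 and the 1-spot STAT3 probe after DBP5 siRNA, JAK1 and STAT5A after GLE1 siRNA, STAT4 after IPPK siRNA, JAK2 and the 10-spot STAT3 probe in GLE1 against DBP5 siRNA, STAT6 and both STAT3 probes in IPPK against DBP5 siRNA, and STAT2 in IPPK against GLE1 siRNA. Gained were the 1-spot STAT3 probe after IPPK siRNA and JAK1 in IPPK against GLE1 siRNA. Of 177 values of the other named genes and markers, 30 lost the call after Benjamini-Hochberg and 2 gained it. Before that adjustment, 16 lost the call and 7 gained it. The STAT4 probe was not kept by the filter on all 12 arrays. Intensities near background limit STAT4 after IPPK siRNA, and normalized arrays give no amount of RNA per cell.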
